A study of Mus musculus with 67 samples.

Results

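The 5 GATA genes Gata2 to Gata6 and the 2 Friend-of-GATA genes Zfpm1 (also called Fog1) and Zfpm2 (Fog2) were followed in RNA-seq of mouse forelimb buds. They were taken by gene name from the 14 deposited gene tables, and make up 7 of the 46983 gene IDs listed. RNA came from entire forelimb buds at E9.25 (21 to 23 somites), before Hedgehog signaling starts in the limb, and the anterior part of the bud at E10.5 (32 to 35 somites), where Hedgehog signaling has started posteriorly. At each stage WT embryos of Swiss Webster background were compared with Gli3-/- embryos, which are homozygous for the Gli3 Xt-J allele, kept on the same background, and lack the main GLI repressor of the limb. There were 3 WT and 4 Gli3-/- libraries at E9.25 and 4 WT and 3 Gli3-/- libraries at E10.5. Each library pooled about 4 pairs of buds at E9.25 and 2 pairs of anterior buds at E10.5, per the labels, so that p-values measure the spread between pools. The comparison asks whether transcript levels change when Gli3 is lost before Hedgehog signaling has begun, and whether they do so after.

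GATA factors are zinc finger proteins that bind the DNA motif they are named for. Gata2 and Gata3 act mainly in blood, endothelium, neurons and ectoderm, and Gata4, Gata5 and Gata6 act in heart, gut, lateral plate and coelomic lining. Friend-of-GATA proteins do not bind DNA at these sites themselves. They bind the N-terminal zinc finger of a GATA factor and bring in co-repressors such as the NuRD complex and CtBP, Zfpm1 mostly with GATA1 to GATA3 in blood and Zfpm2 mostly with GATA4 to GATA6 in heart and gonad. In the mouse forelimb, Gata4 and Gata6 transcripts are known from the anterior side of the bud and from the flank beside it.

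Each of the 7 genes stood on 1 line of every table. In the coordinates of the tables, which overlap those of RefSeq for GRCm38.p6 (mm10) for 99.8% of the matched IDs, Gata2 (ENSMUSG00000015053.14) lies at chr6:88193891-88207032 on the plus strand and Gata3 (ENSMUSG00000015619.10) at chr2:9857078-9890034 on the minus strand. Gata4 (ENSMUSG00000021944.15) lies at chr14:63198922-63271692, Gata5 (ENSMUSG00000015627.5) at chr2:180325133-180334699, both on the minus strand, and Gata6 (ENSMUSG00000005836.8) at chr18:11052510-11085635 on the plus strand. Zfpm1 (ENSMUSG00000049577.14) lies at chr8:122282141-122337251 and Zfpm2 (ENSMUSG00000022306.8) at chr15:40655042-41104592, both on the plus strand. None lies on the chromosome of Gli3, which is chromosome 13. Gata6 overlaps the start of the antisense transcript 1010001N08Rik, Gata5 overlaps Gata5os, and Gata3 overlaps 4930412O13Rik, Gm13256 and 9230102O04Rik. Whether the counting used strand is not given in the sources used here, so that reads from overlapping genes may not be told apart. 1010001N08Rik reached a TPM of 4.67 and the other overlapping transcripts at most 1.24 TPM.

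Levels are given as deposited TPM, a transcript abundance that scales each gene by its length and each library to the same total. Fold changes were fitted on log2(TPM + 1), which understates the change of genes near or below a TPM of 1. At the depth of the 14 libraries, estimated from the tables, a TPM of 1 corresponded to 20.7 to 29.3 reads per kilobase of transcript. Gli3 itself measured 14.3 to 20.8 TPM in the 4 E9.25 Gli3-/- libraries and 44.2, 15.8 and 44.6 TPM in the E9.25 WT libraries, so that the library labelled WT replicate 2 lay within the Gli3-/- range. The gene total also counts transcript from outside the deleted part of the allele. At E10.5 Gli3 measured 38.7 to 40.9 TPM in Gli3-/- and 73.4 to 89.7 TPM in WT, without overlap. The limb mesenchyme markers Tbx5 and Prrx1 were at 24.1 to 76.1 and 70.5 to 302 TPM over all 14 libraries, whereas the hindlimb genes Tbx4 and Pitx1 were at most 8.26 and 4.20 TPM. The full list of 9 limb mesenchyme markers summed to 761 to 914 TPM in E9.25 WT and 663 to 971 TPM in E9.25 Gli3-/-. At E10.5 it summed to 998 to 1235 TPM in WT and 754 to 791 TPM in Gli3-/-, where 5 of 8 tested markers passed as lower and 1 as higher (limma). The part of this difference in the levels of the members was not tested.

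RefSeq promoter windows of 300 bases, 250 before the start and 50 from the start on, were at hand for Gata2 (2 windows), Gata3, Gata5 and Zfpm1. None was at hand for Gata4, Gata6 and Zfpm2. By the coordinates above, Gata3 on the minus strand starts at 9890034, and its window, chr2:9878551-9878850, lies inside the gene. The second Gata2 window, chr6:88198414-88198713, also lies inside its gene. All 5 windows were rich in CpG, with 22 in Gata3, 26 in Gata5, 32 and 29 in Gata2 and 37 in Zfpm1, against a median of 7 over 32851 promoter windows. The sequences before the start of Gata5 and Zfpm1, the genes among these whose level fell between stages in both genotypes, are shown with each CpG in capitals, 5′ to 3′ on the gene's strand. The first is GRCm38.p6 chr2:180334680-180334929 on the minus strand and the second chr8:122281891-122282140 on the plus strand.
Gata5: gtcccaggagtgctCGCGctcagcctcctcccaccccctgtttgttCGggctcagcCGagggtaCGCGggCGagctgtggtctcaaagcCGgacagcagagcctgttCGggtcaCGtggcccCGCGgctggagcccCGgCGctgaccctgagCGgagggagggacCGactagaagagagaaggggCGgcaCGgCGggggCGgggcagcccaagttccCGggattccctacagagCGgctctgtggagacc
Zfpm1: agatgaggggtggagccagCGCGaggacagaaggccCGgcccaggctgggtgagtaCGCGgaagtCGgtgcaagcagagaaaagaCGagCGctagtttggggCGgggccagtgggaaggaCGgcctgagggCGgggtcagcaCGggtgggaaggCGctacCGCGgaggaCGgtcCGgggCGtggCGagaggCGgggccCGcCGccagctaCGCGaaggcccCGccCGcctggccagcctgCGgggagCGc

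The windows were searched on both strands for the GATA motif, spelled AGATAA or else AGATAG or else TGATAA or else TGATAG, and for the GLI motif GACCACCCA. A GATA motif stood in 1 of the 5 windows, that of Gata3, and 29.8% of all promoter windows held one. It begins at base 37 after the RefSeq start of that window, which lies inside the gene. It is in capitals in the last 30 bases of the window, GRCm38.p6 chr2:9878551-9878580 on the minus strand.
Gata3: ctgcctggcgccgtctTGATAGtttcagaa
The GLI motif was in none of the 5 windows and in 0.253% of all. A match or its absence describes only these letters in these windows.

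At E9.25 all 7 transcripts were present in WT buds, with the Friend-of-GATA gene Zfpm1 highest at 24.1 ± 6.06 TPM (SD, n = 3). Gata6 followed at 12.03 ± 5.82 TPM, Gata5 at 7.68 ± 2.89 TPM, Gata3 at 3.85 ± 0.948 TPM, Gata4 at 3.35 ± 1.37 TPM and Gata2 at 2.05 ± 0.678 TPM. Zfpm2 was lowest at 0.529 ± 0.351 TPM. Between neighbours in this order, the libraries of Zfpm1 and Gata6, of Gata5 and Gata3, and of Gata2 and Zfpm2 did not overlap, and those of the other neighbours did. In the 4 Gli3-/- libraries the mean of each of the 7 genes was higher, and the mean of Gata4, at 31.7 ± 12.8 TPM (SD, n = 4), stood beside that of Gata6, at 30.6 ± 11.1 TPM, with overlapping libraries.

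Gata4, a factor of heart, lateral plate and foregut development, was the member that passed the test. Its level was 4.42, 3.82 and 1.80 TPM in the WT libraries and 26.1, 42.9, 41.5 and 16.3 TPM in the Gli3-/- libraries. Every Gli3-/- library lay above every WT library, and the means differed 9.47-fold. The fitted log2 fold change was 2.87 ± 0.35 (SE, limma, Benjamini-Hochberg adjusted p = 0.0128), the third highest of 14760 genes tested, and 2.65 relative to the median gene, since the median log2 fold change over all genes was 0.23. The call was lost when WT replicate 3 (adjusted p = 0.0923), Gli3-/- replicate 1 (0.0740) or Gli3-/- replicate 3 (0.0618) was left out, and without the library labelled WT replicate 2 the adjusted p of Gata4 was 0.0197. In bulk buds, a higher level per cell and more cells that express the gene cannot be told apart.

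Of all genes tested at E9.25, 0.108% passed as higher and 0.0271% as lower in Gli3-/-, and 1 of the 7 members passed, as higher. Gata6, which acts with Gata4 in heart and endoderm, was at 18.7, 9.72 and 7.73 TPM in WT and at 27.8, 38.9, 39.6 and 16.1 TPM in Gli3-/-. The groups overlapped, since Gli3-/- replicate 4 lay below WT replicate 1. Its log2 fold change of 1.29 ± 0.34 did not pass (limma adjusted p = 0.201), and among the fits with a library left out Gata6 passed in that without WT replicate 1 (log2 fold change 1.63, adjusted p = 0.0465), as it did in a single model of all 14 libraries (0.0302). Gata5, a factor of the early heart and endoderm, was at 10.8, 7.13 and 5.11 TPM in WT and at 13.2, 18.2, 20.3 and 11.3 TPM in Gli3-/-. These groups did not overlap, but the lowest Gli3-/- library stood only just above WT replicate 1, and the log2 fold change of 0.97 ± 0.27 did not pass (adjusted p = 0.206).

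Of the Friend-of-GATA genes at E9.25, Zfpm1 was at 30.8, 22.5 and 19.0 TPM in WT and at 34.6, 53.5, 65.8 and 33.4 TPM in Gli3-/-. Its groups did not overlap, and its log2 fold change of 0.90 ± 0.26 did not pass (limma adjusted p = 0.207). Zfpm2, the partner of GATA4 in the heart, was at 0.933, 0.295 and 0.360 TPM in WT and at 1.91, 2.98, 2.74 and 0.890 TPM in Gli3-/-. Here WT replicate 1 lay above Gli3-/- replicate 4. Zfpm2 entered the test only through 3 Gli3-/- libraries above a TPM of 1, so that it had to differ, and its log2 fold change of 1.00 ± 0.29 did not pass (adjusted p = 0.215).

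Gata3, known from ectoderm, kidney duct and T cells, was at 3.92, 2.88 and 4.77 TPM in WT and at 5.03, 6.70, 8.24 and 5.13 TPM in Gli3-/- at E9.25. The groups did not overlap, and the surface ectoderm markers, 9 genes with none at 0, summed to 163 to 246 TPM in WT and 220 to 359 TPM in Gli3-/-, with overlap. The median log2 fold change of these markers was 0.11 against 0.23 over all genes. The log2 fold change of Gata3 of 0.58 ± 0.23 did not pass (limma adjusted p = 0.217). Gata2, known from blood stem cells and endothelium, was at 2.60, 2.26 and 1.30 TPM in WT and at 2.52, 4.05, 2.62 and 2.58 TPM in Gli3-/-. Its groups overlapped, and its log2 fold change of 0.38 ± 0.23 was the smallest of the 7 (adjusted p = 0.314). In all, 4 of 7 members had Gli3-/- libraries wholly above WT, as had 9.97% of all genes tested, and 3 overlapped; 3.36% of all genes lay wholly below. The plot of levels by library shows each of these groups.

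**Figure D1:**
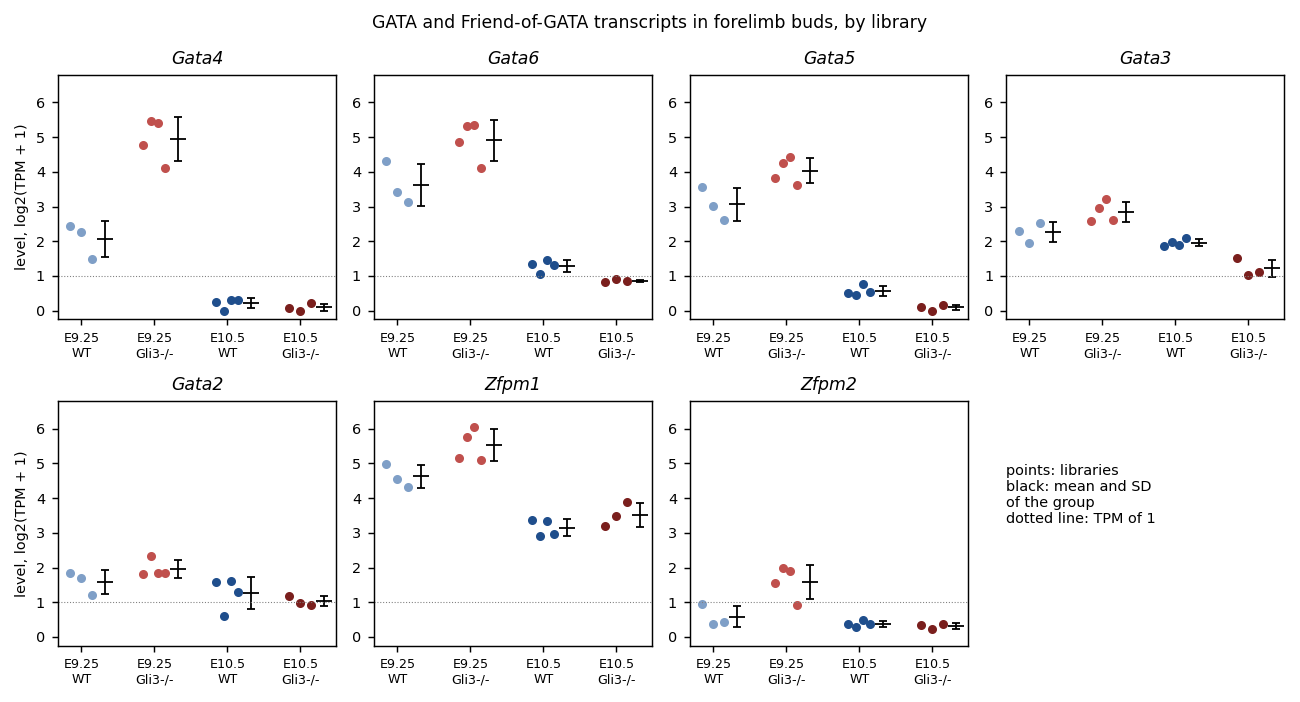
Levels of the 7 genes as log2(TPM + 1), with each point a library, the black mark and bar the mean and SD of its group, and a dotted line at a TPM of 1. The E9.25 Gli3-/- libraries of Gata4 lie at 4.11 to 5.46, above WT at 1.49 to 2.44, and both E10.5 groups of Gata4 lie below 1.

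The make-up of the GATA transcripts shifted with Gata4. The 5 GATA genes summed to 40.4, 25.8 and 20.7 TPM in E9.25 WT and to 74.6, 111, 112 and 51.5 TPM in E9.25 Gli3-/-. Gata4 made up 10.9%, 14.8% and 8.71% of that sum in WT, and 35.0%, 38.7%, 36.9% and 31.7% in Gli3-/-. Per length, Gata4 stood at 0.233 to 0.393 of the level of Gata6 in WT and at 0.939 to 1.10 in Gli3-/-, with no overlap, whereas Gata5 stood at 0.579 to 0.734 of Gata6 in WT and at 0.466 to 0.704 in Gli3-/-, with overlap. Gata6 was the highest of the 5 in all 3 WT libraries, and Gata4 was the highest in 3 of the 4 Gli3-/- libraries. Zfpm1 made up 97.1% to 98.7% of the summed Zfpm1 and Zfpm2 TPM in WT and 94.7% to 97.4% in Gli3-/-.

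**Figure D2:**
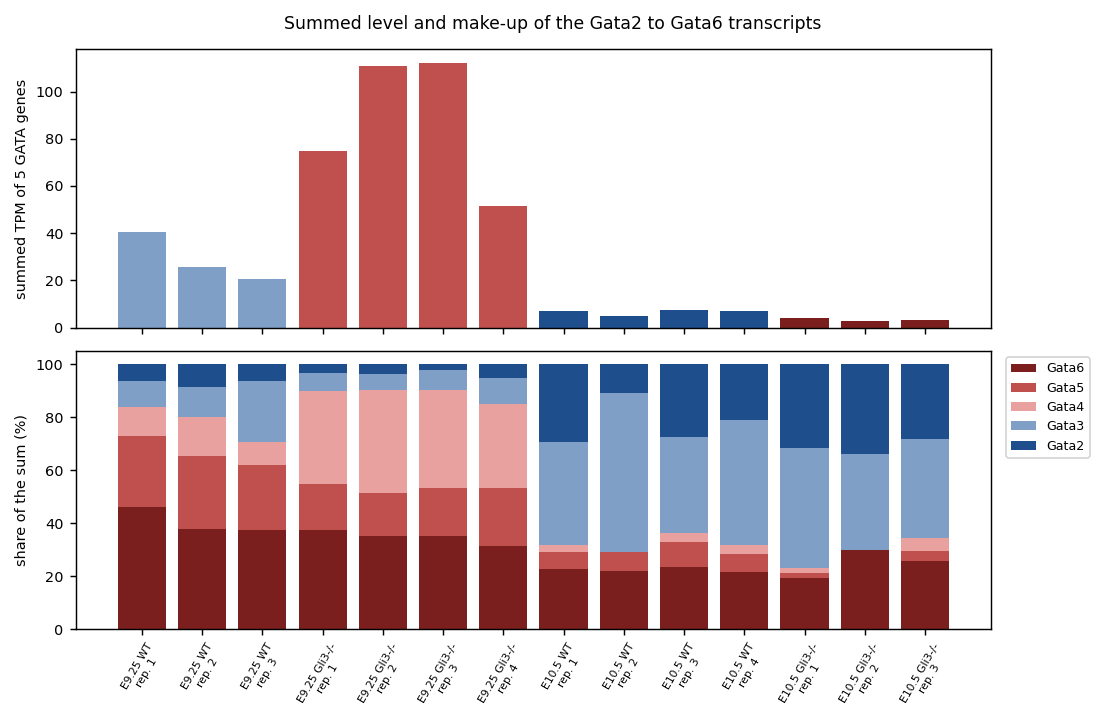
Summed TPM of Gata2 to Gata6 in each library (upper bars, colored by group) and the share of each gene in that sum in percent (lower bars). The sum is 51.5 to 112 TPM in E9.25 Gli3-/- and at most 7.41 TPM at E10.5, where Gata3 takes the largest share in all 7 libraries.

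Among libraries of one group, Gata4, Gata5, Gata6, Zfpm1 and Zfpm2 were each highest in WT replicate 1 and lowest in Gli3-/- replicate 4 of their groups. Markers of the flank, the coelomic and the splanchnic lining varied in the same way. The 9 markers of this list summed to 55.2, 19.4 and 20.7 TPM in E9.25 WT and to 109, 149, 158 and 53.5 TPM in E9.25 Gli3-/-, and of the list only Foxf2 was at 0 in WT, in all 3 libraries. WT replicate 1 and Gli3-/- replicate 4 thus had nearly the same sum. In these 2 libraries, in that order, Gata6 was at 18.7 and 16.1 TPM, Gata5 at 10.8 and 11.3 TPM and Zfpm2 at 0.933 and 0.890 TPM, but Gata4 was at 4.42 and 16.3 TPM. The flank marker Foxf1 was also apart between them, at 2.80 and 12.1 TPM. This sets 2 single libraries side by side and has no test. The 9 endothelial markers summed to 76.3 to 136 TPM in WT and 150 to 226 TPM in Gli3-/-, with none at 0, and the 9 cardiac muscle markers to 20.9 to 31.7 and 27.6 to 43.6 TPM, with 2 to 5 at 0 in a library. The 8 gut endoderm markers summed to 1.73 to 5.05 TPM in WT, with 3 to 6 at 0. In Gli3-/- they summed to 50.9 TPM in replicate 1 and to 5.77 to 6.90 TPM in the other libraries, with 1 to 5 at 0. The part of these cell types in the levels of the members was not tested.

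**Figure D3:**
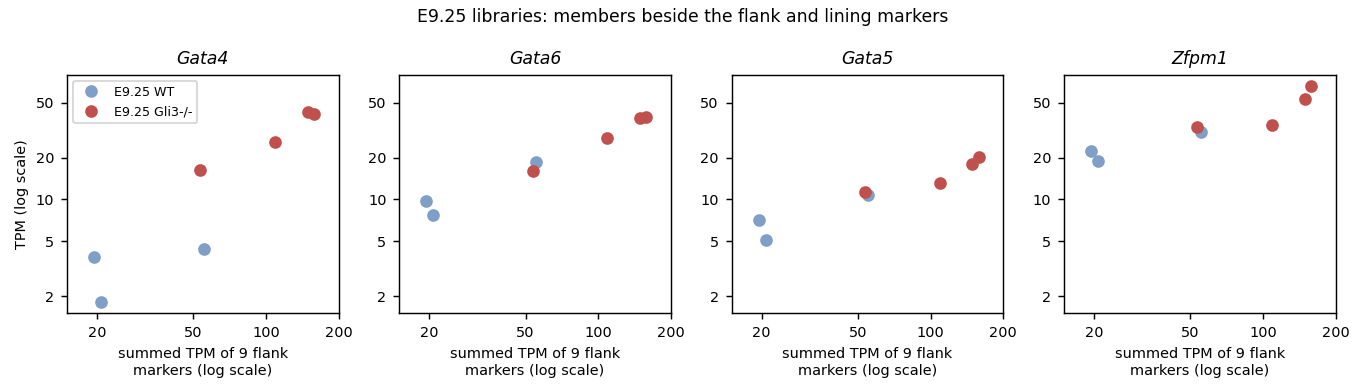
TPM of Gata4, Gata6, Gata5 and Zfpm1 against the summed TPM of 9 flank and lining markers in the 7 E9.25 libraries, both axes logarithmic. At a like marker sum of 53.5 to 55.2 TPM, a WT and a Gli3-/- library have Gata6 at 18.7 and 16.1 TPM and Gata4 at 4.42 and 16.3 TPM. This sets a single library of each genotype side by side and has no test. Foxf1, a part of the sum, is at 2.80 and 12.1 TPM in them.

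At E10.5 the loss of Gli3 went with a lower level of Gata3. Gata3 was at 2.67, 2.91, 2.68 and 3.27 TPM in anterior WT buds and at 1.84, 1.04 and 1.18 TPM in anterior Gli3-/- buds. All Gli3-/- libraries lay below all WT libraries. The 9 surface ectoderm markers summed to 224 to 297 TPM in WT and 338 to 383 TPM in Gli3-/-, but their median log2 fold change was -0.12 against -0.02 over all genes. Of these markers Fgf8 passed as higher (1.36 ± 0.12, limma adjusted p = 0.000501), the other 8 did not pass, and their part in the level of Gata3 was not tested. The log2 fold change of Gata3 was -0.74 ± 0.15 (limma adjusted p = 0.0262). The call held without WT replicate 2 (adjusted p = 0.0497) and without Gli3-/- replicate 1 (0.0191), and was lost without WT replicate 1 (0.0595), 3 (0.0513) or 4 (0.0725) and without Gli3-/- replicate 2 (0.0915) or 3 (0.111). Of all 15654 genes tested at E10.5, 2.93% passed as lower and 1.84% as higher, and 1 of the 4 members tested passed, as lower.

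Gata6 at E10.5 was at 1.56, 1.07, 1.75 and 1.49 TPM in WT and at 0.779, 0.866 and 0.812 TPM in Gli3-/-. The groups did not overlap, but the log2 fold change of -0.43 ± 0.15 did not pass (limma adjusted p = 0.142). Gata6 entered this test only through its 4 WT libraries, with 0 Gli3-/- libraries at a TPM of 1, so that it had to differ. Gata2 was at 2.01, 0.533, 2.05 and 1.45 TPM in WT and at 1.29, 0.983 and 0.898 TPM in Gli3-/-, with overlap and a log2 fold change of -0.24 ± 0.24 (adjusted p = 0.640). With 3 WT libraries and 1 Gli3-/- library at a TPM of 1, Gata2 also met the filter through WT. Zfpm1 was the one tested member with a higher mean in Gli3-/-, at 9.37, 6.48, 9.17 and 6.88 TPM in WT against 8.12, 10.3 and 13.7 TPM. Its groups overlapped and its log2 fold change was 0.37 ± 0.18 (adjusted p = 0.307). The 10 erythroid markers, which include the Zfpm1 partner Gata1, summed to 12467 to 17328 TPM in E10.5 WT and to 14839 to 42151 TPM in E10.5 Gli3-/-, none at 0, and their part in the level of Zfpm1 was not tested.

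Gata4, Gata5 and Zfpm2 were below the filter at E10.5, with no library at a TPM of 1. Gata4 was at 0.190, 0, 0.233 and 0.242 TPM in WT and at 0.0631, 0 and 0.158 TPM in Gli3-/-. Gata5 was at 0.428, 0.361, 0.700 and 0.464 TPM in WT and at 0.0854, 0 and 0.116 TPM in Gli3-/-, without overlap. Zfpm2 was at 0.302, 0.212, 0.400 and 0.303 TPM in WT and at 0.259, 0.169 and 0.305 TPM in Gli3-/-, with overlap. The exact two-sided permutation p-values of the difference in mean log2(TPM + 1), unadjusted, were 0.286 for Gata4, 0.0571 for Gata5 and 0.400 for Zfpm2, and 0.0571 is the smallest that groups of 3 and 4 allow. Gata4 was thus at or below 0.242 TPM in every E10.5 library of both genotypes, and a difference between them was not detectable at this level. Of the 4 members tested at E10.5, Gata3 and Gata6 had Gli3-/- libraries wholly below WT and none had them wholly above, against 11.5% and 7.87% of all genes tested. Gata6 met the filter through WT alone, so that its place below WT was fixed by the filter and is given as a description.

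Between the stages, E9.25 buds were whole and E10.5 buds anterior, so that stage and dissection cannot be told apart. In WT the GATA4 to GATA6 group and Zfpm1 fell. Gata5 went from 5.11 to 10.8 TPM over the E9.25 WT libraries to 0.361 to 0.700 TPM at E10.5, with a log2 fold change of -2.50 ± 0.23 (limma adjusted p = 0.000157). Gata6 went from 7.73 to 18.7 TPM to 1.07 to 1.75 TPM (-2.32 ± 0.27, adjusted p = 0.000450). Gata4 went from 1.80 to 4.42 TPM to at most 0.242 TPM (-1.85 ± 0.24, adjusted p = 0.000704). Zfpm1 went from 19.0 to 30.8 TPM to 6.48 to 9.37 TPM (-1.47 ± 0.20, adjusted p = 0.000834), the remaining fall that passed. All 4 were lower in every E10.5 library, and Gata4 and Gata5 entered the test only through their 3 E9.25 libraries, so that they had to differ and could not be tested when one of these was left out.

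Gata2, at 1.30 to 2.60 TPM in E9.25 WT and 0.533 to 2.05 TPM in E10.5 WT, and Gata3, at 2.88 to 4.77 and 2.67 to 3.27 TPM, overlapped between stages in WT and did not pass (limma log2 fold changes of -0.31 ± 0.28 and -0.30 ± 0.18, adjusted p = 0.370 and 0.174). With the library labelled WT replicate 2 at E9.25 left out, Gata3 passed (adjusted p = 0.0487). Zfpm2 was below the filter in both WT groups, with a log2 difference of -0.21 and an exact permutation p of 0.400, unadjusted. In this comparison 10.6% of 15444 genes passed as lower and 38.1% as higher, and 12% (1857 genes, lower) and 41.5% (higher) had groups that did not overlap. The median log2 fold change over all genes was 0.34, relative to which Gata5 was at -2.83, Gata6 at -2.66, Gata4 at -2.19, Zfpm1 at -1.81, Gata2 at -0.65 and Gata3 at -0.64. With quantile normalization 2668 genes passed as higher and 3050 as lower, in place of 5885 and 1635, Gata2 (-0.83, adjusted p = 0.0387) and Gata3 (-0.82, adjusted p = 0.00275) passed as lower, and no direction of a member changed.

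In Gli3-/- all 7 genes fell between E9.25 and E10.5, each with every E10.5 library below every E9.25 library, where 9.17% of 15434 genes passed as lower and 15.8% as higher, and 13.4% and 22.3% did not overlap. Gata4 fell by 4.83 on the log2 scale (SE 0.29, limma adjusted p = 2.38e-06), from 16.3 to 42.9 TPM to at most 0.158 TPM. Gata6 fell by 4.04 (SE 0.27), from 16.1 to 39.6 TPM to 0.779 to 0.866 TPM, and Gata5 by 3.94 (SE 0.20), from 11.3 to 20.3 TPM to at most 0.116 TPM. Zfpm1 fell by 2.00 (SE 0.25), Gata3 by 1.62 (SE 0.20), Zfpm2 by 1.28 (SE 0.25) and Gata2 by 0.93 (SE 0.18), with limma adjusted p-values from 0.000272 to 0.00410. Of these, Zfpm2 entered the test only through its E9.25 libraries, as did Gata4, Gata5 and Gata6, so that these 4 had to differ. Gata2, with 4 E9.25 libraries and 1 E10.5 library at a TPM of 1, also met the filter through E9.25, so that its fall is not free of the filter.

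Over the 4 groups, the 5 GATA genes and Zfpm2 had the order E9.25 Gli3-/-, E9.25 WT, E10.5 WT, E10.5 Gli3-/- from the highest median to the lowest. For Zfpm1 the last places were exchanged. Neighbours in these orders overlapped in their libraries for Gata2 throughout, for Zfpm2 throughout, and for Gata3 between the WT groups. For Gata6 the E9.25 groups overlapped, for Gata4 the E10.5 groups, and for Zfpm1 the E10.5 groups. For Gata5 no neighbouring groups overlapped. In E10.5 the 5 GATA genes summed to only 4.87 to 7.41 TPM in WT and 2.89 to 4.05 TPM in Gli3-/-, of which Gata2 and Gata3 together made up 63.8% to 70.7% and 65.6% to 77.1%. In E9.25 they made up 16.1% to 29.3% in WT and 9.67% to 15.0% in Gli3-/-.

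The change with loss of Gli3 differed between the stages for 4 of the 7 genes in the test of the interaction, where 1.65% of 16368 genes passed as negative and 0.477% as positive. The genotype change at E10.5, less that at E9.25, was -2.99 ± 0.41 for Gata4 (limma adjusted p = 0.00158), -1.72 ± 0.41 for Gata6 (0.0455), -1.44 ± 0.32 for Gata5 (0.0283) and -1.32 ± 0.27 for Gata3 (0.0190). Gata4 and Gata5 reached a TPM of 1 in the 7 E9.25 libraries only and were at most 0.242 and 0.700 TPM at E10.5, where their change on this scale cannot be far from 0, so that for these genes the interaction largely repeats the E9.25 difference. Gata4 passed with each of the 14 libraries left out in turn. All 14 libraries share 1 estimate of spread in this test. The log2(TPM + 1) of Gata4 had an SD of 0.51 and 0.63 in E9.25 WT and Gli3-/-, against 0.15 and 0.11 at E10.5. For Gata6 the SD was 0.61 and 0.58 against 0.18 and 0.03. The interaction p-values thus do not measure the wider spread between E9.25 pools alone. Gata3 lost the call without E10.5 Gli3-/- replicate 2 (adjusted p = 0.0586) or 3 (0.0667). Gata5 kept it only without E9.25 WT replicate 1 (0.00567), E9.25 Gli3-/- replicate 1 (0.0341) or 4 (0.0158), or E10.5 WT replicate 2 (0.0395), with adjusted p-values up to 0.0734 otherwise. Gata6 kept it only without E9.25 WT replicate 1 (0.00718) or E9.25 Gli3-/- replicate 4 (0.00824), with adjusted p-values up to 0.122 otherwise. For Zfpm2 (-1.07 ± 0.32, adjusted p = 0.104), Gata2 (-0.62 ± 0.34, 0.289) and Zfpm1 (-0.53 ± 0.35, 0.363) the difference did not pass. Zfpm2 entered this test only through 3 E9.25 Gli3-/- libraries, and passed without E9.25 WT replicate 1 (0.0367) or E9.25 Gli3-/- replicate 4 (0.0158). The median of all genes was -0.24, and the values of Gata4, Gata6, Gata5 and Gata3 relative to it were -2.75, -1.48, -1.20 and -1.08.

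**Figure D4:**
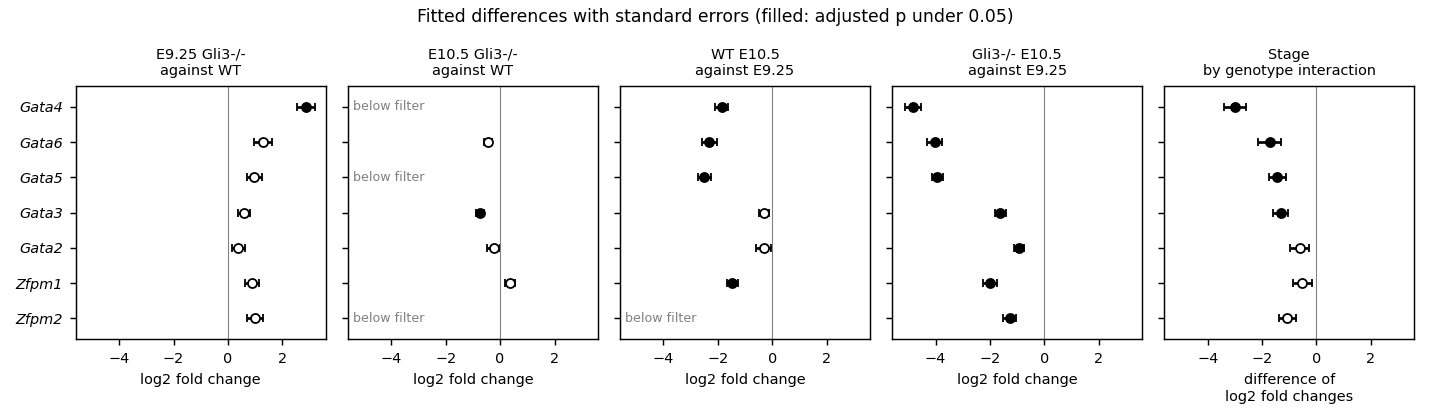
Fitted log2 fold changes of the 7 genes with standard errors as bars in the 4 comparisons, and the difference of the genotype effects between stages in the last panel, with filled points for an adjusted p under 0.05. Gata4 is filled at 2.87 in E9.25 Gli3-/- against WT, and Gata3 is filled at -0.74 in E10.5.

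Genes whose pattern over the 14 libraries was most like that of each member were found by the root mean square difference of log2(TPM + 1) after each gene's own mean was taken off, over 16368 genes that reached a TPM of 1 in 3 or more libraries. Libraries of a stage share that stage's level, so that the measure follows the difference between stages above all. Gata5 and Gata6 were each other's nearest gene, with a difference of 0.19, where both had their own deviations of 1.69 and 1.73. Wnt2, a secreted signal of the splanchnic mesoderm, was second for both, at 0.30 and 0.32. The third for Gata6 was Crb2 (0.35). For Gata4 the nearest were Foxf1 (0.53) and Hand1 (0.58), both transcription factors of lateral plate, followed by Gata6 (0.60), and its own deviation was 2.07.

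Gata3 was nearest to Arl4c (0.17), Zdhhc2 (0.20) and Llgl2 (0.22), and Gata2 to Hmga1 and Ncald (both 0.21), against own deviations of 0.61 and 0.45. Zfpm1 was nearest to 5033428I22Rik (0.25), Atp1b1 (0.27) and Colec12 (0.29), against a deviation of 1.02. Zfpm2, with little signal at E10.5, was nearest to Gm24115 (0.10), Pard6b (0.12) and Lhx6 (0.14), against a deviation of 0.59. Neither Friend-of-GATA gene had a GATA gene among its 3 nearest. Foxf1, nearest to Gata4, was at 0.221 to 2.80 TPM in E9.25 WT and 12.1 to 35.5 TPM in E9.25 Gli3-/-, and at most 0.202 TPM at E10.5. Hand1 was at 5.04 to 24.6 TPM and 20.6 to 79.1 TPM at E9.25, with overlap, and at most 1.21 TPM at E10.5.

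Other transcription factors of the lateral plate and heart, a list of 14 genes that act alongside GATA4 to GATA6 in heart and flank, were read in the same way. At E9.25, 12 of the 14 were tested, 3 passed as higher in Gli3-/- and none as lower, with a list median log2 fold change of 1.20 against 0.23 over all genes. These were Foxf1 (3.68 ± 0.43, limma adjusted p = 0.0125), Osr1 (2.09 ± 0.21, 0.00636) and Tcf21 (1.53 ± 0.23, 0.0380), a factor of the coelomic lining and later of kidney and heart mesenchyme. At E10.5, 6 were tested and the median was 0.05 against -0.02, with Hand2 higher (1.90 ± 0.17, adjusted p = 0.000544) and the BAF chromatin-remodeling subunit Smarcd3 lower (-0.78 ± 0.13, 0.00958). Of the 14 genes, 6 also stand in the list of flank markers. Foxf1, Tcf21, Isl1 and Tbx20 met the filter at E9.25 through the Gli3-/- libraries alone, so that 2 of the 3 calls and part of the list's median were fixed in direction by the filter and are given as a description.

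Between stages, 38.1% of all genes passed as higher and 10.6% as lower in WT, and 15.8% and 9.17% in Gli3-/-. Of this list, 3 of 8 tested genes rose and 3 fell in WT, with a median of 0.07 against 0.34 over all genes. Among those that passed were Hand1 (-2.59 ± 0.45, limma adjusted p = 0.00262), Wt1 (-1.65 ± 0.21, 0.000599), Osr1 (1.54 ± 0.21, 0.000836) and Smarcd3 (1.16 ± 0.22, 0.00363). In Gli3-/-, 8 of 12 fell and none rose, with a median of -1.57 against 0.06, led by Hand1 (-5.40 ± 0.39, adjusted p = 6.85e-06), Foxf1 (-4.44 ± 0.30, 4.71e-06), Wt1 (-2.77 ± 0.19, 5.36e-06) and Tcf21 (-2.40 ± 0.19, 1.21e-05). Hand1 and Wt1 in WT, and these with Foxf1, Tcf21, Isl1 and Tbx20 in Gli3-/-, met the filter only in the E9.25 libraries and had to fall, which covers 2 of the 3 falls in WT and 6 of the 8 in Gli3-/-. The interaction passed as negative for 4 of 12, namely Foxf1 (-3.59 ± 0.50, adjusted p = 0.00179), Hand1 (-2.81 ± 0.66, 0.0402), Smarcd3 (-1.84 ± 0.32, 0.00782) and Tcf21 (-1.41 ± 0.25, 0.00915), and as positive for none, with a median of -1.24 against -0.24. In the interaction 1.65% of all genes passed as negative and 0.477% as positive. Foxf1 and Tcf21 were below a TPM of 1 in all E10.5 libraries and met the filter at E9.25 through Gli3-/- alone. Their negative sign was thus largely set by the filter, which covers 2 of the 4 calls. Isl1 and Tbx20 met the filter at E9.25 in the same way, so that part of the list's median was set by it too. Of the 9 flank markers, 4 of 5 tested fell in WT and 7 of 8 in Gli3-/- between stages, and 1 rose in each, Mab21l2 (3.24 and 3.08), which is at 51.0 to 136 TPM at E10.5 and makes up most of the list's sum there. All 4 and 7 markers that fell met the filter only in the E9.25 libraries and had to fall.

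The co-repressor genes that Friend-of-GATA proteins bind, 15 genes of NuRD and CtBP, were all tested in each comparison, all at a TPM of at least 1 in all 14 libraries. None passed between genotypes at E9.25, with a median log2 fold change of 0.31 against 0.23, or at E10.5, with 0.05 against -0.02, or in the interaction, with -0.21 against -0.24. Between stages in WT, 38.1% of all genes passed as higher and 10.6% as lower. Of the 15 co-repressor genes 9 rose and 1 fell, with a median of 0.28 that lay below the 0.34 of all genes. The largest were the NuRD helicase Chd3 (3.51 ± 0.27, limma adjusted p = 7.56e-05), the GATA-type subunit Gatad2b (1.12 ± 0.29, 0.0144), the helicase Chd4 (0.77 ± 0.23, 0.0248) and the methyl-CpG binding subunit Mbd2 (0.46 ± 0.10, 0.00728). In Gli3-/- Chd3 rose (2.16 ± 0.18, adjusted p = 2.19e-05) and the histone-binding subunit Rbbp7 fell (-0.46 ± 0.10, 0.00835), with the other 13 not passing and a median of 0.12 against 0.06.

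The 6 further genes with GATA-type zinc fingers gave no call between genotypes, with list medians of 0.28 against 0.23 at E9.25, 0.18 against -0.02 at E10.5 and -0.15 against -0.24 in the interaction. Between stages 2 of 6 rose in WT, with a median of -0.06 against 0.34, and 1 of 6 in Gli3-/-, with -0.15 against 0.06, and none fell. Over all genes 38.1% passed as higher in WT and 15.8% in Gli3-/-. Trps1, a GATA-type repressor of skeletal development, rose in both (1.86 ± 0.33, limma adjusted p = 0.00303, and 2.17 ± 0.17, 1.02e-05), from 4.36 to 14.8 TPM in E9.25 WT and 6.85 to 11.9 TPM in E9.25 Gli3-/- to 32.7 to 45.6 TPM in E10.5. Gatad2b, which is also in the NuRD list, rose in WT. Gata1, the red cell GATA factor, was at 2.50 to 14.5 TPM over the 14 libraries.

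Of 11 partners of GATA factors in blood, 9 were tested in each comparison. None passed at E9.25, with a median log2 fold change of 0.34 against 0.23 over all genes. At E10.5 Lmo2, a bridging protein of GATA complexes, was higher in Gli3-/- (0.88 ± 0.15, limma adjusted p = 0.0109) and none was lower, with a median of 0.54 against -0.02. Between stages Fli1, an ETS factor of endothelium and blood, rose in WT (1.96 ± 0.13, adjusted p = 3.60e-05) and in Gli3-/- (1.90 ± 0.13, 5.85e-06), Ldb1 rose in WT (0.53 ± 0.11, 0.00655) and Lmo2 rose in Gli3-/- (0.80 ± 0.17, 0.00783), with medians of -0.29 against 0.34 and -0.10 against 0.06. Between these stages, 38.1% of all genes passed as higher in WT and 15.8% in Gli3-/-. The interaction passed for Lmo2 (1.09 ± 0.23, adjusted p = 0.0227), with a median of -0.06 against -0.24. The sign of Lmo2 in the interaction is opposite to that of the 4 GATA genes that passed.

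**Figure D5:**
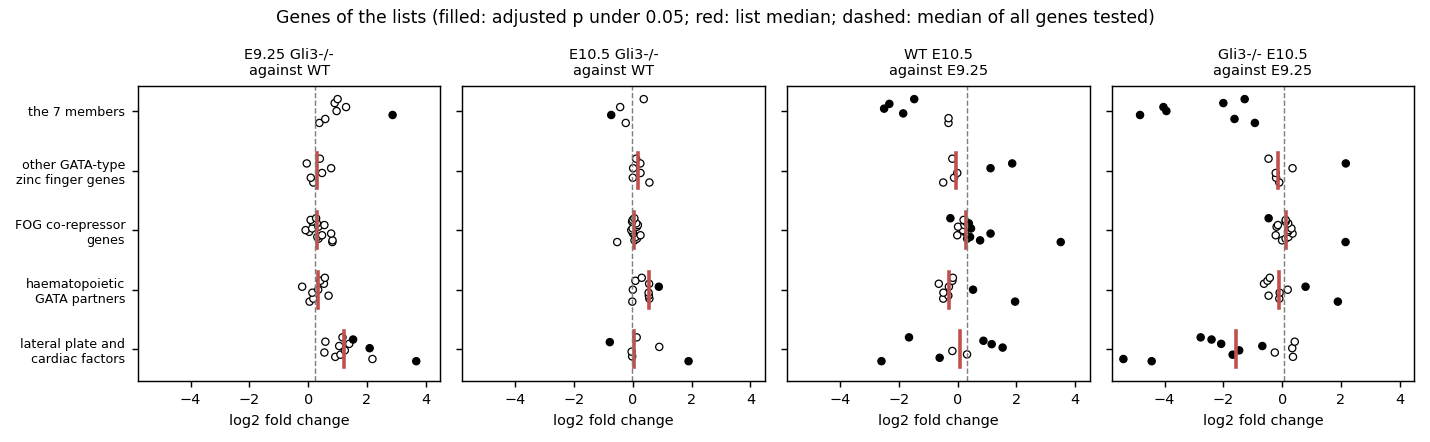
Fitted log2 fold changes of the members and of 4 lists of related genes in the 4 comparisons, with filled points for an adjusted p under 0.05, a red bar at each list's median and a dashed line at the median of all genes tested. At E9.25 the lateral plate and cardiac list has a median of 1.20 against 0.23 over all genes, with 4 of its 12 genes tested through the Gli3-/- libraries alone, and the other 3 lists lie at 0.28 to 0.34.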

How the data were processed

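Single reads of 100 bases were, per the study's methods, aligned with HISAT2 after library preparation with the NEBNext Ultra II RNA kit. The build named in the submitters' processing notes is mm10, and the tool, annotation and strand setting that made the gene values are not given in the sources used here. The authors deposited, per gene and library, TPM, FPKM and coverage. TPM, scaled by the authors to the same sum in each library, was used for every comparison. The deposited FPKM and the deposited coverage, a signal of mean depth per base, served only to estimate reads per library. No counts were given, so that limma was used in place of the DESeq2 that the authors name.

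TPM of gene IDs on several lines was summed. Genes that reached a TPM of 1 in 3 or more libraries of a comparison were fitted on log2(TPM + 1) with limma 3.58.1 in R 4.3.3 (lmFit, eBayes with a trend), two-sided, with Benjamini-Hochberg adjustment over all genes tested and a threshold of 0.05. The interaction used all 14 libraries, which share 1 estimate of the spread. The fitting script was tested on simulated data. Members below the filter got an exact permutation test over the 35 splits of 7 libraries (SciPy 1.17.1). Other steps used Python 3.11.15, pandas 2.3.3, NumPy 2.4.6 and matplotlib 3.10.9. Groups came from the sample titles and the stage and strain labels. Promoter sequences were RefSeq's for GRCm38.p6.

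All 7 members were described in every comparison. From each list, up to 4 genes with the largest absolute log2 fold change among those that passed were named, and for each member the 3 genes most like it, of which some are not reported here. The members and lists were chosen with earlier results of these data known. The TPM of Gata1, Foxf1, Hand1, Trps1, Mab21l2, Pitx1, Tbx4, Tbx5 and Prrx1 set beside results was chosen after the values were seen. Results were recomputed with other filters (none, or a TPM of 5), a smaller pseudocount (0.1), no variance trend in eBayes, size factors by median of ratios or quantile normalization, weights for sample quality, a replicate block, 1 model of all 14 libraries, and each library left out in turn. Estimated depth was 38.1 to 56.8 (in units of 1e+06 reads) per library. Libraries of other assays in the series were not analysed here.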

Additional observations from a re-analysis of the deposited data

Results flagged for a closer look

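The change with loss of Gli3 differed between E10.5 and E9.25 by -2.99 on the log2 scale for Gata4, by -1.72 for Gata6, by -1.44 for Gata5 and by -1.32 for Gata3, each past the threshold in the limma interaction term. At E10.5 Gata4 and Gata5 were below a TPM of 1 in all 7 libraries, and Gata6 was at 0.779 to 1.75 TPM. Gata3 also passed on its own at E10.5, as lower in Gli3-/-, where its mean at E9.25 was higher in Gli3-/-.

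Gata2 in E9.25 Gli3-/- replicate 2 stood apart from the other 3 libraries of its group, with a log2(TPM + 1) of 2.34 against 1.82 to 1.86. The gap made up 0.926 of the group's range. Only the groups of 4 libraries were examined in this way, and chance flags about 1 in 20 groups. Erythroid markers summed to 8415 TPM in that library, the lowest of all 14, and endothelial markers to 226 TPM, the highest of all 14. Also the highest of all 14 there were the GATA-type list (263 TPM), the co-repressor list (2798 TPM) and the lateral plate and cardiac list (441 TPM). The sums of the remaining lists were not. The part of these sums in the level of Gata2 was not tested.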

How the results depend on the processing

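In E9.25 Gli3-/- against WT, the 1 member called became 0 with no filter on low TPM (limma, 6 members at an unadjusted p under 0.05) and 5 in a single model of all 14 libraries, and 0 to 2 with a library left out. At E10.5 the 1 member called became 0 with no filter, with a filter at a TPM of 5, with a replicate block by the numbers of the titles or of the deposited tables and in a single model of all 14 libraries (3, 0, 2, 2 and 1 members at an unadjusted p under 0.05), 2 with sample quality weights, and 0 to 1 with a library left out. The 4 called in WT between stages became 2 to 4 with a library left out, where fewer members could be tested. The 4 called in the interaction became 1 with no filter, 2 with quantile normalization and 1 with either replicate block, and 1 to 5 with a library left out. Gata2 between stages in WT changed direction with sample quality weights, to 0.0823 from -0.31. The remaining causes were not tested.

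Over all genes, the 20 called at E9.25 became 0 with no filter (3542 at an unadjusted p under 0.05), 53 with quality weights, 66 with a replicate block, 1185 in a single model and 2 to 196 with a library left out. The 747 at E10.5 became 391 with no filter, 1356 with weights, 164 with a replicate block by titles, 406 in a single model and 301 to 680 with a library left out. The 7520 in WT between stages became 4699 with a replicate block, the 3853 in Gli3-/- became 6520 with weights and 2129 to 4326 with a library left out, and the 348 in the interaction became 830 with weights, 42 and 59 with a replicate block and 150 to 1433 with a library left out. Quantile normalization split the calls as 17 higher and 13 lower at E9.25 (16 and 4 in place), 2342 and 2186 in Gli3-/- between stages (2437 and 1416) and 164 and 181 in the interaction (78 and 270).

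Same-numbered libraries were not shown to be paired: their deviations correlated at -0.199 to -0.161 at E9.25 and at -0.180 to 0.153 (titles) or 0.0522 to 0.316 (deposited tables) at E10.5. Levels below a TPM of 1 limit Gata4, Gata5 and Zfpm2 at E10.5. Levels near a TPM of 1 limit Gata2 and Gata6 there, and also Gata3 in Gli3-/-, at 1.04 to 1.84 TPM.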
